A study of Mus musculus with 7 samples.

Results

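The fibroblast growth factor genes of the mouse retina were examined through 9 genes of 54532 in the expression table. They are Fgf2 and the genes that lie across it, Fgf2os and Nudt6, the ligand genes Fgf1 and Fgf9, and the receptor genes Fgfr1, Fgfr2, Fgfr3 and Fgfr4, all taken by gene name. Expression was measured by RNA sequencing in 3 libraries from Agbl5 knockout mice, 2 from heterozygous and 2 from wildtype mice, and the heterozygous and wildtype libraries together are called the 4 controls. Agbl5 encodes CCP5, an enzyme that removes the branch-point glutamates of polyglutamylated tubulin, and the study asked what its loss does in photoreceptors. The tissue label reads eyeball, while the extraction protocol describes retinal tissue. The strain, age and sex of the mice and the construction of the knockout allele are not given in the labels. The labels also do not say whether libraries of a genotype came from separate animals, so the p-values measure the spread between these samples, which may be technical in part. Y-linked genes, given below, set some of these libraries apart.

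Fibroblast growth factors are secreted proteins that bind, together with heparan sulfate chains, to receptor tyrosine kinases encoded by Fgfr1 to Fgfr4. An occupied receptor phosphorylates the adaptor FRS2 and signals through RAS and the MAP kinases to genes such as Dusp6, the Sprouty genes and the ETS factors Etv4 and Etv5, several of which feed back to dampen the signal. In the retina FGF2 is known as a survival factor for photoreceptors, and its messenger RNA is known to increase after light damage or injury and in several inherited degenerations. Nudt6 encodes a Nudix hydrolase and is transcribed from the strand opposite to Fgf2, overlapping its 3′ end, and it is known in several species as an antisense transcript of Fgf2. Fgf2os is annotated as an antisense RNA at the 5′ end of Fgf2.

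On chromosome 3 of the mouse build GRCm38, the GENCODE models place Fgf2 at 37348346 to 37410108 on the plus strand, with 5 merged exons of 6782 bases. Fgf2os runs on the minus strand from 37335332 to 37349740 with 4 exons of 1441 bases. Its first exon lies in the first intron of Fgf2, and the 2 genes share no exon bases. Nudt6 runs on the minus strand from 37404910 to 37420211 with 8 merged exons of 1677 bases, of which 640 bases (38.2%) are also exon of Fgf2 and 316 bases (18.8%) exon of Spata5. The shared bases are 9.44% of the Fgf2 exons. The library kit does not mark the strand, so in those stretches reads of Nudt6 cannot be told from reads of its neighbours. How such reads were counted is not given. Gm43439, which shares 255 exon bases with Fgf2, stood at 0 FPKM in every library. Nudt6 had 50, 61 and 45 reads in knockout libraries, beside 1293, 1452 and 1281 of Fgf2. If reads on shared bases were left out, FPKM scaled by all exon bases would understate Nudt6, and Fgf2 less so.

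**Figure D1:**
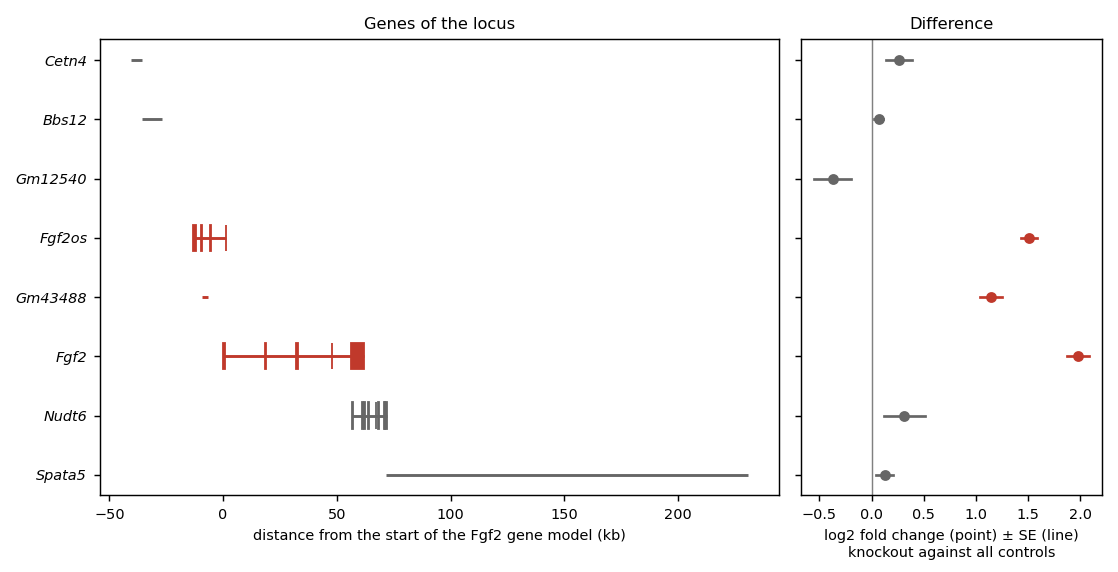
Left, gene models by distance from the start of the Fgf2 model in kilobases, with lines for gene bodies and tall boxes for the merged exons of Fgf2os, Fgf2 and Nudt6; right, log2 fold change of FPKM + 1 (point) with its SE (line) for knockout against the 4 controls. Red marks the genes that passed the test, Fgf2 at 1.97, Fgf2os at 1.51 and Gm43488 at 1.15, and grey the others.

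In RefSeq, Fgf2os starts 1188 bases downstream of the Fgf2 start and is transcribed back across it, and Nudt6 starts beyond the far end of Fgf2. The 250 bases before each RefSeq start are printed because Fgf2 and Fgf2os were both higher in knockout than in all controls. Nudt6 was instead higher than wildtype in both knockout and heterozygous libraries, without passing the test. The sequences come from RefSeq on GRCm38.p6, read 5′ to 3′ on the strand of each gene, at chr3:37348403-37348652 for Fgf2 (plus), chr3:37349842-37350091 for Fgf2os (minus) and chr3:37419597-37419846 for Nudt6 (minus). Capitals mark the GC box GGGCGG on either strand, where neighbouring matches can share bases.
Fgf2: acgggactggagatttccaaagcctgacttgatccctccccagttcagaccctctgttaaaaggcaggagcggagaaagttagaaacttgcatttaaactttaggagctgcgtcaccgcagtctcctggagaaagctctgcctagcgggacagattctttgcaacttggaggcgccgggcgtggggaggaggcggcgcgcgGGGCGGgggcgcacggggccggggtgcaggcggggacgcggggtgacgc
Fgf2os: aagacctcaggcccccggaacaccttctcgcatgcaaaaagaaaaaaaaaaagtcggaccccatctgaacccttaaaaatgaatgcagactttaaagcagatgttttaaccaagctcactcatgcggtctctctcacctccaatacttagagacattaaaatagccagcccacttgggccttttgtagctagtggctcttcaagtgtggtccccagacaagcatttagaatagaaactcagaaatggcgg
Nudt6: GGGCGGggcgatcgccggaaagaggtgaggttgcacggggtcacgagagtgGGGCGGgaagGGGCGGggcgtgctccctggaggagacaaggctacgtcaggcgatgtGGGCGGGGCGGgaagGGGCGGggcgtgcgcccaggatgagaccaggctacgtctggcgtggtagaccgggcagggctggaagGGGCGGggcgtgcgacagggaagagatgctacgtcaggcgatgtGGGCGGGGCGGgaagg
The Fgf2 window is 62.4% G or C and holds 1 GC box, the Fgf2os window is 44.8% G or C and holds 0, and the Nudt6 window is 71.6% G or C and holds 9. By the GENCODE models the Fgf2 window falls within the first Fgf2 exon, which begins upstream of the RefSeq start. The Nudt6 window lies downstream of the GENCODE start of Nudt6 at 37420211, mostly in the intron after its first merged exon. The first window listed for each gene was used. Of 27025 promoter windows of that length in RefSeq, 32.9% hold a GC box on either strand, and the median G or C content is 52.0%. Neither the STAT motif TTCNNNGAA nor the AP-1 motif TGANTCA, searched on both strands, was found in these 3 windows or in those of Fgf9, Fgfr2, Fgfr3 and Fgfr4, and 7.18% and 6.87% of all windows hold them. The Fgfr3 window held 3 GC boxes and the Fgfr4 window 2, and the Fgf9 and Fgfr2 windows held 0. Fgf1 and Fgfr1 were not matched.

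The libraries were of similar depth, with 12244707 to 14339701 reads recovered from the FPKM values. Agbl5 stood at 1.53, 1.73 and 1.26 FPKM in knockout, 4.21 and 5.34 in heterozygous and 9.89 and 8.57 in wildtype libraries, with a log2 change of -2.03 ± 0.13 (SE) between knockout and wildtype (limma, adjusted p = 0.0041). Rod markers were high in every library, and none of them was at 0. Knockout 1 and heterozygous 1 stood apart by their lens transcripts: 8 lens marker genes summed to 4509 and 2828 FPKM there and to 3.44 to 32.2 FPKM in the other 5 libraries. The summed level of 4 Y-linked genes was 0 FPKM in knockout 3 and wildtype 2 and 51.7 to 63.1 FPKM in the other libraries. The sexes were therefore mixed within knockout and within wildtype. Knockout 3 thus did not come from the same animal as knockout 1 or knockout 2, nor wildtype 2 from that of wildtype 1. Whether knockout 1 and knockout 2, or the heterozygous libraries, came from separate animals stays unknown. With the mean level of the Y-linked genes in the fit, Fgf2 differed by 1.98 between knockout and wildtype (limma, adjusted p = 0.0234) and Fgf2os by 1.53 (limma, adjusted p = 0.0213).

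Fgf2 and its antisense gene Fgf2os rose together in knockout, and no other gene of the 9 passed the test in any comparison. Fgf2 stood at 14.4, 15.2 and 13.8 FPKM in knockout libraries, 3.64 and 2.37 FPKM in heterozygous and 2.82 and 3.00 FPKM in wildtype libraries. The 3 knockout libraries lie close to each other and well above the 4 controls, among which heterozygous 1 is the highest and heterozygous 2 the lowest. The means were 14.5 ± 0.683 FPKM in knockout (SD, n = 3), 3.01 ± 0.899 in heterozygous and 2.91 ± 0.126 in wildtype (SD, n = 2 each), which makes knockout 4.81 times heterozygous and 4.97 times wildtype. Behind these values were 1293, 1452 and 1281 reads in knockout, 349 and 210 in heterozygous and 280 and 307 in wildtype libraries.

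On the log2(FPKM + 1) scale, which understates the change of low genes, Fgf2 rose by 1.98 ± 0.14 (SE; 95% interval 1.66 to 2.31) in knockout against wildtype and passed limma's test across all genes with an adjusted p of 0.00457. It rose by 1.97 ± 0.14 against heterozygous (1.64 to 2.29; limma, adjusted p = 0.00491) and by 1.97 ± 0.11 against the 4 controls (1.73 to 2.22; limma, adjusted p = 0.000296). Between heterozygous and wildtype the difference was 0.02 ± 0.15 with an interval of -0.34 to 0.37 (limma, adjusted p = 0.995), so that the 2 control genotypes differed by less than their spread. These comparisons share libraries and are not independent of each other. With the replicate numbers as a block, the calls of Fgf2 against wildtype and against heterozygous were lost (limma, adjusted p = 0.0882 and 0.128). Without wildtype 1 the knockout-to-wildtype change was 1.95 (limma, adjusted p = 0.0777), and without wildtype 2 it was 2.02 (limma, adjusted p = 0.0733). The size of the change was kept, and the lone wildtype library is taken there to vary like the other groups. Leaving out both lens-rich libraries gave 1.98 against wildtype (limma, adjusted p = 0.0358), 2.198 against heterozygous, where the lone heterozygous library is treated likewise and the call was lost (limma, adjusted p = 0.0721), and 2.06 against the controls (limma, adjusted p = 0.00748).

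Fgf2os had 11.4, 11.95 and 12.2 FPKM in knockout, 3.83 and 3.24 FPKM in heterozygous and 3.18 and 3.91 FPKM in wildtype libraries. As for Fgf2, every knockout library was above every control and the heterozygous and wildtype libraries overlapped. Its rise on the log2(FPKM + 1) scale was 1.51 ± 0.10 against wildtype (95% interval 1.27 to 1.75; limma, adjusted p = 0.00406), 1.51 ± 0.10 against heterozygous (limma, adjusted p = 0.00491) and 1.51 ± 0.08 against the 4 controls (limma, adjusted p = 0.000296). In FPKM the knockout mean was 3.35 times the wildtype mean, a smaller ratio than the 4.97 of Fgf2. The gene rests on fewer reads, 218, 243 and 241 in knockout, 78 and 61 in heterozygous and 67 and 85 in wildtype libraries. With the replicate numbers as a block, its calls against wildtype and against heterozygous were lost too (limma, adjusted p = 0.0919 and 0.128). Without wildtype 1 its change against wildtype was 1.39 (limma, adjusted p = 0.0752) and without wildtype 2 it was 1.62 (limma, adjusted p = 0.0501), and without both lens-rich libraries the change against heterozygous was 1.63 (limma, adjusted p = 0.106).

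The level of Fgf2os per Fgf2, both in FPKM, was 0.794, 0.788 and 0.885 in knockout, 1.05 and 1.37 in heterozygous and 1.13 and 1.30 in wildtype libraries. In these FPKM values Fgf2os was the higher of the pair in each of the 4 controls and Fgf2 in each knockout library. The ratios of heterozygous 1 (1.05) and wildtype 1 (1.13) are close to even and rest on 78 and 67 reads of Fgf2os. Reads on exon bases that Fgf2 shares with Nudt6 (9.44%) and Gm43439 (3.76%) may be uncounted. That would understate Fgf2, so the order in these libraries is uncertain.

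Of the 9 genes, 6 had a mean of at least 1 FPKM and were tested, and 2 of these 6 rose in knockout against wildtype, against 0.265% of all 15472 tested genes called higher in that comparison. The same count was 2 of 6 against heterozygous, where 0.271% of all tested genes were called higher, and 2 of 6 against the 4 controls, where 0.465% were. None of the 6 was called lower, beside 0.0582% of all tested genes against wildtype, 0.0452% against heterozygous and 0.149% against the controls. The genes were chosen with earlier results of these data known, and Fgf2 and Fgf2os lie at the same locus. These shares therefore describe the 6 genes and do not test them as a group. Without regard to the test, 4 of the 6 (Fgf2, Fgf2os, Nudt6 and Fgfr1) had all knockout libraries above both wildtype libraries and 1 (Fgf1) had all below, beside 13.5% and 14.7% of all tested genes. Between heterozygous and wildtype, 1 of the 6 (Nudt6) had both heterozygous libraries above both wildtype ones and 0 had both below, beside 14.3% and 15.7% of all tested genes. Between heterozygous and wildtype 0 of 6 passed, and limma called 0% of all tested genes there, as voom of limma called 0 of its 14796 genes. At an unadjusted p below 0.05 stood 1 of the 6, Nudt6, and the share of all tested genes at that unadjusted p was not counted.

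Nudt6, which shares exon bases with Fgf2, showed another order of genotypes. It had 2.25, 2.58 and 1.96 FPKM in knockout, 2.03 and 2.47 FPKM in heterozygous and 1.06 and 1.19 FPKM in wildtype libraries. Knockout and heterozygous libraries overlapped, and all 5 lay above both wildtype libraries. The difference on the log2(FPKM + 1) scale was 0.62 ± 0.13 between knockout and wildtype (95% interval 0.30 to 0.93; limma, adjusted p = 0.259), 0.61 ± 0.14 between heterozygous and wildtype (0.27 to 0.95; limma, adjusted p = 0.974) and 0.01 ± 0.13 between knockout and heterozygous (-0.31 to 0.32; limma, adjusted p = 0.988). None of these passed the test. The values stand on 50, 61 and 45 reads in knockout, 48 and 54 in heterozygous and 26 and 30 in wildtype libraries.

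The distance between Fgf2 and Nudt6, taken as the log2(FPKM + 1) of Fgf2 minus that of Nudt6, was 2.24, 2.18 and 2.32 in knockout, 0.62 and -0.04 in heterozygous and 0.89 and 0.87 in wildtype libraries. The 3 knockout libraries did not overlap with the 4 controls. The mean was 2.25 in knockout and 0.59 in the controls, a difference of 1.66 (exact permutation test, two-sided by doubling the one-sided p, p = 0.0571). This is the smallest p that the doubling allows for 3 libraries against 4, where 1 split is a share of 0.0286. Fgf2 FPKM was 5.89 to 7.04 times that of Nudt6 in knockout, 0.962 and 1.80 times in heterozygous and 2.53 and 2.66 times in wildtype libraries. These ratios would be too high if reads on the shared exon bases were left out of the counts, which was not tested.

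Genes around the locus, chosen by position within 100 kb after the other lists were set, did not move as a block. Gm43488, a predicted gene modelled at 37339017 to 37341520 on the plus strand inside an intron of Fgf2os, also rose. It had 5.40, 5.66 and 5.64 FPKM in knockout, 2.38 and 1.96 FPKM in heterozygous and 1.502 and 2.09 FPKM in wildtype libraries. The difference was 1.15 ± 0.11 on the log2(FPKM + 1) scale against the 4 controls (limma, adjusted p = 0.00330). Because the kit does not mark the strand, reads of Gm43488 cannot be told from reads of unspliced Fgf2os RNA. Bbs12, a gene of the chaperonin complex that assembles the BBSome, lies on the other side of Fgf2os and had 18.8, 19.4 and 19.0 FPKM in knockout, 18.1 and 18.2 FPKM in heterozygous and 17.6 and 18.8 FPKM in wildtype libraries (0.07 ± 0.04; limma, adjusted p = 0.574). The centrin gene Cetn4 (0.26 ± 0.12; limma, adjusted p = 0.442), the pseudogene Gm12540 (-0.37 ± 0.18; limma, adjusted p = 0.450) and the ATPase gene Spata5 (0.13 ± 0.08; limma, adjusted p = 0.560) did not pass against the controls.

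**Figure D2:**
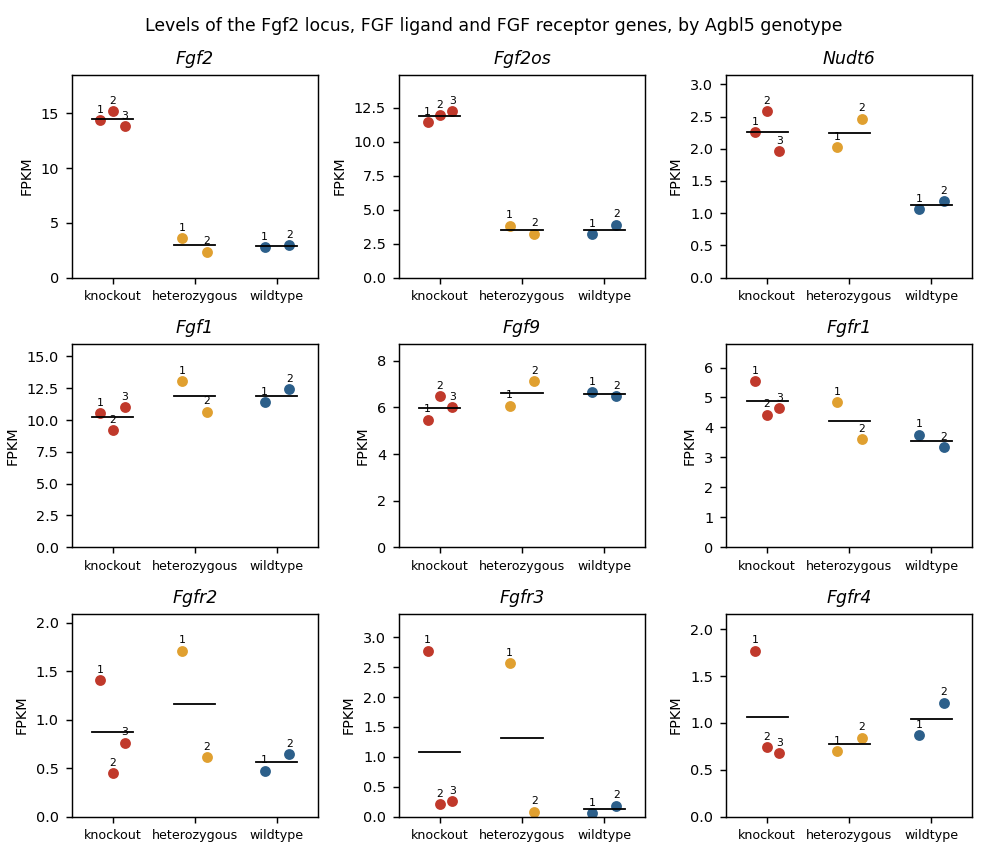
FPKM of the 9 genes by Agbl5 genotype, each gene in its own panel, with numbered points for libraries and bars for genotype means. Fgf2 and Fgf2os have all 3 knockout libraries above all 4 controls, and Fgfr3 is high in knockout 1 and heterozygous 1, at 2.78 and 2.56 FPKM.

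Neither of the other ligands passed the test in any comparison. Fgf1, the acidic fibroblast growth factor, which binds all 4 receptors, had 10.5, 9.23 and 11.01 FPKM in knockout, 13.1 and 10.7 FPKM in heterozygous and 11.4 and 12.4 FPKM in wildtype libraries. Knockout libraries lay below both wildtype libraries and overlapped with the heterozygous ones. The difference between knockout and wildtype was -0.20 ± 0.11 on the log2(FPKM + 1) scale with an interval of -0.47 to 0.06 (limma, adjusted p = 0.764). Fgf9, a secreted ligand of neural and epithelial tissues, had 5.48, 6.48 and 6.01 FPKM in knockout, 6.08 and 7.14 FPKM in heterozygous and 6.65 and 6.48 FPKM in wildtype libraries. The groups overlapped, and the difference of -0.12 ± 0.10 between knockout and wildtype did not pass (-0.34 to 0.11; limma, adjusted p = 0.845).

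The order of the 3 ligands by genotype means differed in knockout. There Fgf2 was first at 14.5 FPKM in knockout, before Fgf1 at 10.3 and Fgf9 at 5.99. In wildtype Fgf1 was first at 11.9 FPKM, then Fgf9 at 6.56 and Fgf2 at 2.91, and the library ranges of neighbours in these orders did not overlap. Fgf2 made up 47.4%, 49.1% and 44.8% of the summed FPKM of the 3 ligands in knockout, 16.0% and 11.8% in heterozygous and 13.5% and 13.7% in wildtype libraries. The sum itself was 30.4, 30.9 and 30.8 FPKM in knockout, 22.8 and 20.2 FPKM in heterozygous and 20.9 and 21.9 FPKM in wildtype libraries. Over all 9 genes the wildtype order by FPKM was Fgf1, Fgf9, Fgfr1, Fgf2os, Fgf2, Nudt6, Fgfr4, Fgfr2 and Fgfr3. The libraries of Fgfr1 and Fgf2os and those of Nudt6 and Fgfr4 overlapped, and Nudt6 may be understated because of its shared exon bases. The knockout order was Fgf2, Fgf2os, Fgf1, Fgf9, Fgfr1 and Nudt6, followed by Fgfr3, Fgfr4 and Fgfr2, with overlaps between Fgf9 and Fgfr1, between Nudt6 and Fgfr3 and among the last 3 receptors. The 15 remaining genes of secreted ligands were all below the filter. Fgf22 led them with a mean over the 7 libraries of 0.963 FPKM (0.791 to 1.14), before Fgf3 with 0.790 (0.487 to 1.17), and Fgf4 and Fgf16 were listed at 0 in every library.

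Among the receptors Fgfr1 was the most abundant in all 7 libraries. It had 5.55, 4.43 and 4.64 FPKM in knockout, 4.85 and 3.61 FPKM in heterozygous and 3.76 and 3.34 FPKM in wildtype libraries. Knockout libraries were above both wildtype libraries and overlapped with the heterozygous ones, of which the lens-rich library was the higher. The difference between knockout and wildtype was 0.36 ± 0.14 on the log2(FPKM + 1) scale (0.04 to 0.69) and did not pass after adjustment (limma, adjusted p = 0.616; unadjusted p = 0.0335). Without both lens-rich libraries it was 0.28 (limma, adjusted p = 0.588).

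Fgfr2, Fgfr3 and Fgfr4 had means over the 7 libraries of 0.868, 0.879 and 0.975 FPKM, just under the filter of 1 FPKM. Fgfr3 had 2.78, 0.218 and 0.255 FPKM in knockout, 2.56 and 0.0856 FPKM in heterozygous and 0.0669 and 0.185 FPKM in wildtype libraries. Its high libraries are knockout 1 and heterozygous 1, which are also the libraries with high lens markers, and the part of lens tissue in the values was not tested. Fgfr2 had its highest values in the same libraries, with 1.41, 0.446 and 0.765 FPKM in knockout, 1.71 and 0.616 FPKM in heterozygous and 0.477 and 0.648 FPKM in wildtype libraries. Fgfr4 was highest in knockout 1, with 1.77, 0.740 and 0.681 FPKM in knockout, 0.700 and 0.844 FPKM in heterozygous and 0.869 and 1.22 FPKM in wildtype libraries. The ranges of heterozygous and knockout libraries overlapped for each of the 3 genes.

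With a filter of 0.1 FPKM in place of 1 FPKM, which brought 24644 genes into the test, the 3 receptor genes had wide intervals between knockout and wildtype. Fgfr4 stood at -0.02 (-0.59 to 0.55; limma, adjusted p = 0.998), Fgfr2 at 0.23 (-0.46 to 0.92; limma, adjusted p = 0.917) and Fgfr3 at 0.67 (-0.89 to 2.23; limma, adjusted p = 0.895). A change of the size seen for Fgf2 falls outside the intervals of Fgfr2 and Fgfr4 and inside that of Fgfr3. Fgfr1 made up 75.9% and 73.2% of the summed FPKM of the 4 receptors in knockout 2 and knockout 3, 70.0% in heterozygous 2 and 72.7% and 62.0% in the wildtype libraries. In the lens-rich libraries it made up 48.2% in knockout 1 and 49.3% in heterozygous 1, where Fgfr3 took 24.1% and 26.1%, against 1.29% to 4.03% in the other 5 libraries.

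**Figure D3:**
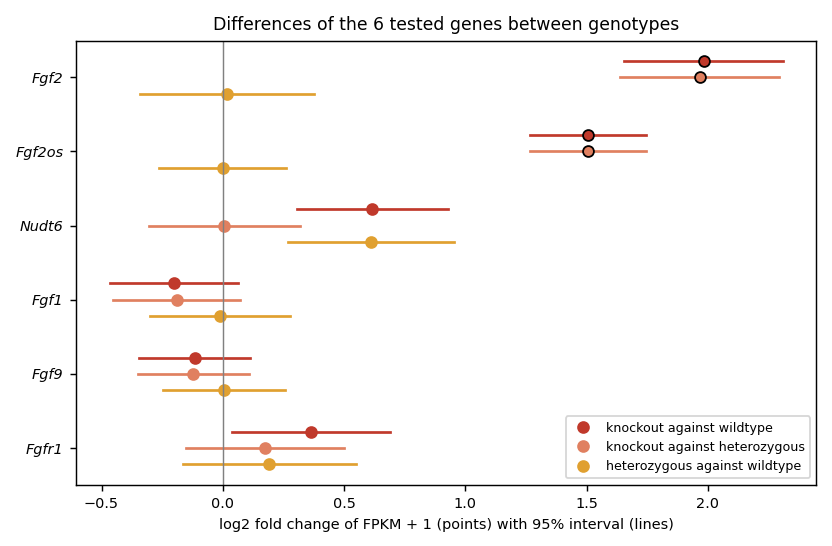
Difference in log2(FPKM + 1) (points) with its 95% interval (lines) for the 6 tested genes between the genotypes, coloured by comparison, with black rings where the adjusted p is below 0.05. Fgf2 and Fgf2os carry rings in both knockout comparisons, at 1.97 to 1.98 and at 1.51.

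Genes that act with the ligands and receptors were taken as 6 lists of 91 genes, of which 68 passed the filter. None of the 68 was called higher or lower between knockout and wildtype, where 0.323% of all tested genes were called in either direction, or between knockout and heterozygous (0.317%), heterozygous and wildtype (0%) or knockout and the 4 controls (0.614%). With limma, 6, 4, 2 and 7 of them had an unadjusted p below 0.05 in these comparisons. The share of all tested genes at that unadjusted p was not counted, so these numbers are not read as a result. Voom of limma called 0 of the 63 for which whole reads were recovered, beside 77, 77, 0 and 151 of all 14796 genes it tested. The median difference of the 68 between knockout and wildtype was 0.01 on the log2(FPKM + 1) scale, beside -0.00 over all tested genes. Knockout libraries were all above the 4 controls in 6 of the 68 genes and all below in 3, against 6.75% and 6.26% of all tested genes. The 6 were Agrn, Ext2, Sulf1, Shc1, Dusp6 and Etv4, and the 3 were Sos2, Braf and Pik3r1. On counts simulated with a fixed spread, the fit called 12 of 60 genes changed 1.5-fold between knockout and wildtype. It called 7 of 60 such genes against heterozygous and 23 of 60 against the controls. A change of that size or smaller in a pathway gene could therefore go uncalled.

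**Figure D4:**
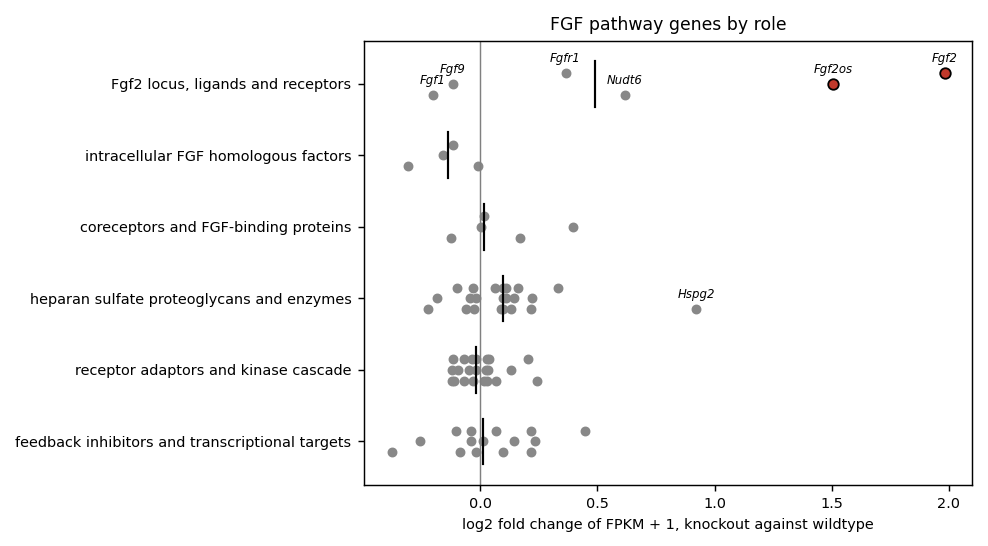
Difference in log2(FPKM + 1) between knockout and wildtype for each tested gene of the FGF pathway lists, by list, with list medians as bars and, in the top row, the 6 tested genes of the Fgf2 locus, ligands and receptors; red points with black rings passed the test. The 68 pathway genes have a median of 0.01, and none passed the test, whereas Fgf2 and Fgf2os lie at 1.98 and 1.51.

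None of the listed targets and inhibitors of receptor signalling passed the test. Of 18 feedback inhibitors and transcriptional targets 15 were tested, with a median difference of 0.01 between knockout and wildtype. In that comparison 8 of the 15 lay above 0. Against heterozygous the median was 0.15, with 13 of the 15 above 0. Against the controls it was 0.06, with 11 of the 15 above 0. Between heterozygous and wildtype the median was -0.07. Whether the 15 genes shifted as a set was not tested. Dusp6, the phosphatase of ERK that the pathway induces, had 7.77, 8.44 and 8.08 FPKM in knockout, 5.56 and 7.56 FPKM in heterozygous and 6.70 and 6.94 FPKM in wildtype libraries. Every knockout library was above every control, and the difference of 0.25 ± 0.09 against the controls did not pass (0.03 to 0.46; limma, adjusted p = 0.354). Etv4, an ETS transcription factor gene, had 2.34, 3.11 and 2.97 FPKM in knockout, 1.55 and 1.70 FPKM in heterozygous and 2.22 FPKM in both wildtype libraries. Here too the groups did not overlap, with a difference of 0.38 ± 0.13 against the controls that did not pass (0.09 to 0.67; limma, adjusted p = 0.310). Its relative Etv5 differed by 0.10 ± 0.11 (limma, adjusted p = 0.739).

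The Sprouty genes encode inhibitors of receptor tyrosine kinase signalling. Spry1 had 2.65, 3.44 and 2.32 FPKM in knockout, 2.51 and 1.85 FPKM in heterozygous and 2.19 and 2.30 FPKM in wildtype libraries, and the knockout libraries were above the wildtype ones and overlapped with the heterozygous ones. Its difference against the controls was 0.24 ± 0.12 (limma, adjusted p = 0.481), that of Spry2 0.03 ± 0.10 (limma, adjusted p = 0.918) and that of Spry4 0.06 ± 0.12 (limma, adjusted p = 0.879). Spred1, a related inhibitor, differed by -0.05 ± 0.08 (limma, adjusted p = 0.847). Egr1, an immediate early gene, was variable, with 21.4, 12.9 and 16.4 FPKM in knockout, 18.1 and 13.3 FPKM in heterozygous and 22.9 and 20.8 FPKM in wildtype libraries. Il17rd, the gene of the inhibitor SEF, was below the filter at 0.323 to 0.586 FPKM over the 7 libraries.

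All 22 genes of the receptor adaptors and the kinase cascade were tested, with a median difference between knockout and wildtype of -0.02. Ptpn11, which encodes the phosphatase SHP2, had 23.7, 23.9 and 23.4 FPKM in knockout, 22.4 and 22.5 FPKM in heterozygous and 22.6 and 23.6 FPKM in wildtype libraries. Its difference against wildtype was 0.03 ± 0.05 with an interval of -0.09 to 0.16 (limma, adjusted p = 0.921). The adaptor gene Frs2 differed by -0.12 ± 0.11 (limma, adjusted p = 0.854), the MEK1 gene Map2k1 by 0.03 ± 0.07 (limma, adjusted p = 0.948) and the ERK1 gene Mapk3 by 0.03 ± 0.10 (limma, adjusted p = 0.967).

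Heparan sulfate proteoglycans and the enzymes of their chains had 22 of 24 genes tested, with a median difference of 0.10 between knockout and wildtype. Sulf1, which encodes a sulfatase that trims heparan sulfate outside the cell, had 7.30, 7.14 and 6.29 FPKM in knockout, 5.77 and 5.71 FPKM in heterozygous and 5.56 and 5.00 FPKM in wildtype libraries. All knockout libraries were above all controls, and the difference of 0.33 ± 0.09 against wildtype did not pass after adjustment (0.12 to 0.54; limma, adjusted p = 0.396). Hspg2, the gene of the basement membrane proteoglycan perlecan, had 8.19, 1.10 and 1.30 FPKM in knockout, 10.4 and 1.01 FPKM in heterozygous and 1.01 and 0.742 FPKM in wildtype libraries. It was high in the lens-rich libraries, as Fgfr3 was, and the part of lens tissue was not tested. Sdc1, a syndecan gene below the filter, was highest in the same libraries at 1.43 FPKM in knockout 1 and 1.38 FPKM in heterozygous 1, against 0.112 to 0.731 FPKM in the others. The syndecan gene Sdc4 differed by 0.06 ± 0.12 between knockout and wildtype (limma, adjusted p = 0.930) and the glypican gene Gpc1 by -0.02 ± 0.09 (limma, adjusted p = 0.975).

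The intracellular FGF homologous factors, which bind sodium channels of neurons and are not secreted, had 4 of 4 genes tested and a median difference of -0.14 between knockout and wildtype. Fgf12 had 8.80, 9.98 and 9.29 FPKM in knockout, 12.6 and 9.83 FPKM in heterozygous and 11.5 and 12.2 FPKM in wildtype libraries. Knockout libraries were below both wildtype libraries, with a difference of -0.31 ± 0.11 that did not pass (-0.57 to -0.05; limma, adjusted p = 0.587). Fgf11 differed by -0.12 ± 0.12 (limma, adjusted p = 0.869), Fgf13 by -0.16 ± 0.16 (limma, adjusted p = 0.867) and Fgf14 by -0.01 ± 0.10 (limma, adjusted p = 0.988). Among coreceptors and FGF-binding proteins 5 of 8 genes were tested, with a median of 0.02. The decoy receptor gene Fgfrl1 differed by 0.17 ± 0.22 (limma, adjusted p = 0.895), and Klb, the gene of the coreceptor beta-klotho, was below the filter at 0.0623 to 0.219 FPKM over the 7 libraries.

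The genes whose profile was nearest to that of Fgf2 were sought among 12490 named genes above the filter, other than the 9, by the root mean square difference of log2(FPKM + 1) over the 7 libraries after centring each gene. The 6 nearest were C4b, Gadd45b, Tnnt2, Lad1, Gfap and A2m, at 0.159, 0.203, 0.209, 0.226, 0.299 and 0.304, beside a median of 0.989 over all candidates. On the same measure Fgf2os lay at 0.251, with 4 candidate genes nearer than it, and Nudt6 at 0.871. C4b, a complement gene with a near-identical copy that can share its reads, had 16.3, 11.8 and 13.4 FPKM in knockout, 3.64 and 1.87 FPKM in heterozygous and 2.34 and 3.00 FPKM in wildtype libraries. The stress-inducible gene Gadd45b had 10.4, 11.5 and 8.05 FPKM in knockout, 2.67 and 1.98 FPKM in heterozygous and 2.24 and 2.96 FPKM in wildtype libraries. In both genes the heterozygous and wildtype libraries overlapped.

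Tnnt2, a troponin gene of heart muscle, and Lad1, the ladinin gene, were lower. Tnnt2 had 3.33 to 3.73 FPKM in knockout, 0.256 and 0.366 FPKM in heterozygous and 0.441 and 0.385 FPKM in wildtype libraries. Lad1 had 5.87 to 6.94 FPKM in knockout, 0.583 and 0.135 FPKM in heterozygous and 0.342 and 0.702 FPKM in wildtype libraries. Gfap, an intermediate filament gene that astrocytes and reactive Mueller glia express, had 20.1, 23.2 and 16.3 FPKM in knockout, 9.62 and 4.94 FPKM in heterozygous and 4.96 and 6.74 FPKM in wildtype libraries. A2m, a protease inhibitor gene, had 5.90 to 7.76 FPKM in knockout, 2.38 and 1.79 FPKM in heterozygous and 1.00 and 1.13 FPKM in wildtype libraries. In all 6 genes the knockout libraries were above the 4 controls, which goes with their choice by nearness to Fgf2 in the same libraries. The measure describes these 7 libraries without a test.

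**Figure D5:**
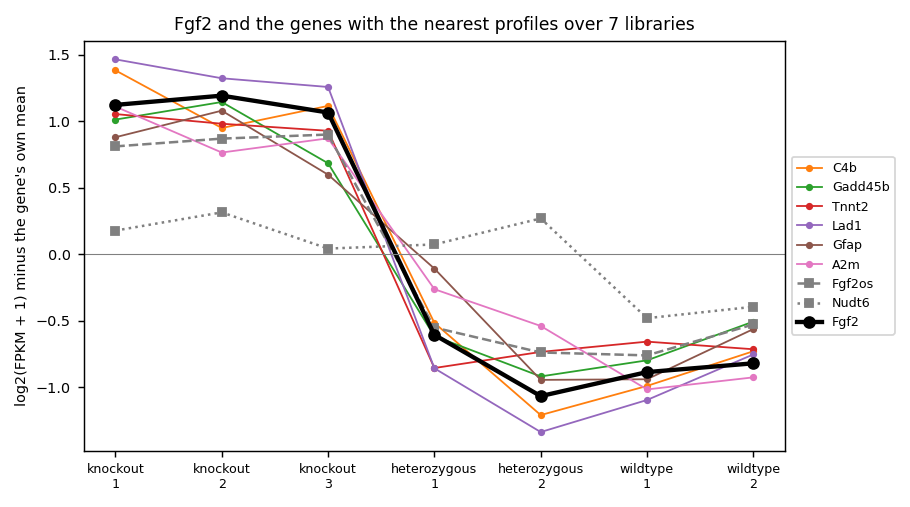
Level of Fgf2, Fgf2os, Nudt6 and the 6 genes nearest to Fgf2 in each library, as log2(FPKM + 1) minus the mean of the gene over the 7 libraries, with knockout libraries on the left. C4b lies nearest to Fgf2, at a root mean square difference of 0.159, and Nudt6 farther off, at 0.871.

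Some marker genes of retinal cell types differed between the genotypes along with Fgf2, and in these whole-tissue samples fewer cells of a type and less RNA per cell cannot be told apart. All 8 microglial markers were higher in every knockout library than in every control, and their sum was 26.5 to 29.1 FPKM in knockout, 17.6 to 18.2 FPKM in heterozygous and 17.1 to 19.0 FPKM in wildtype libraries. Over all tested genes, 6.75% had every knockout library above every control and 6.26% had every one below. Rod markers summed to 7886 to 8014 FPKM in knockout, 8641 to 9787 FPKM in heterozygous and 8629 to 8759 FPKM in wildtype libraries, with 6 of 8 below all controls and 1 above. Markers of Mueller glia summed to 1744 to 1965 FPKM in knockout, 1658 to 1685 FPKM in heterozygous and 1619 to 1740 FPKM in wildtype libraries, with 2 of 10 above all controls. Astrocyte markers, of which Gfap is one, summed to 25.9 to 34.3 FPKM in knockout, 15.6 to 19.5 FPKM in heterozygous and 14.7 to 17.8 FPKM in wildtype libraries, with 1 of 5, Gfap, above all controls. The other 4 astrocyte markers summed to 9.60 to 12.04 FPKM in knockout, 9.91 to 10.7 FPKM in heterozygous and 9.74 to 11.1 FPKM in wildtype libraries, and these overlapped. The sums for endothelium, pigment epithelium and cornea overlapped between knockout and the controls, as did those for ganglion cells. No marker of these lists was at 0 in all 7 libraries. Their part in the level of Fgf2 and Fgf2os was not tested, and the libraries do not show in which cells Fgf2 rose.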

How the data were processed

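Polyadenylated RNA of 7 libraries was sequenced after library construction with an unstranded NEBNext Ultra kit, per the labels' protocols. The authors deposited 1 table of FPKM, fragments scaled by gene length and library size, for 54532 genes. The submitters' processing notes name TopHat2 2.0.9, Bowtie2 2.0.6, HTSeq and DESeq and the builds mm10 and GRCm38; their order, settings and annotation release are not given in the sources used here. The 15472 genes whose mean reached 1 FPKM were fitted as log2(FPKM + 1) with limma 3.58.1 in R 4.3.3 (empirical Bayes with trend, two-sided, Benjamini-Hochberg over all genes tested, threshold 0.05), with 1 mean per genotype (4 residual degrees of freedom) or with the 4 controls as 1 group (5). The script was tested on simulated data.

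Exon lengths of GENCODE M21 matched 54495 genes and turned 96.8% of the values above 0 into whole reads within 0.01; 1 read on 1 kb was worth 0.0663 to 0.0766 FPKM. These reads gave the depths and a voom alternative. Fgf1 did not give whole reads. Named were the 9 genes, 24 pathway genes whatever their value, pathway genes that passed (none) and the 6 genes nearest to Fgf2. The members and lists were chosen with earlier results of these data known. Alternatives changed the pseudocount, filter, scale, size factors, tool and libraries, or added lens, Y-linked or replicate terms.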

Additional observations from a re-analysis of the deposited data

Results flagged for a closer look

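Among the 4 controls, 33 genes (the 9 genes and 24 pathway genes) were searched on the log2(FPKM + 1) scale for a library far from the rest by Dixon's test, and 3 were found. Chance alone marks about 1 in 20. Fgfr3 was high in heterozygous 1, at 2.56 FPKM, against 0.0669 to 0.185 FPKM in the other controls. Hspg2 was high in the same library, at 10.4 FPKM, against 0.742 to 1.01 FPKM. That library is one of the pair rich in lens transcripts, and the part of lens tissue was not tested. Ptpn11 was high in wildtype 2, at 23.6 FPKM, against 22.4 to 22.6 FPKM.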

How the results depend on the processing

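Each test was repeated under 17 alternatives (16 for Fgf1 and for the pathway genes Flrt1, Ndst1, Sos1, Spry4 and Fosl1, for which voom had no whole reads). The alternative with size factors matched the main fit to the printed digits for Fgf2 and Fgf2os, with the same counts of calls over all genes. It is included in the counts below but adds no separate check. Against the 4 controls the calls of Fgf2 and Fgf2os held in 17 of 17, with Fgf2 between 1.90 and 2.30 (limma, adjusted p up to 0.0149). Against wildtype they held in 14 of 17. Leaving out 1 library at a time gave 1.95 to 2.02 for Fgf2 and 0 to 2 members called, with 0 without wildtype 1 or wildtype 2. Against heterozygous they held in 15 of 17, and without both lens-rich libraries Fgf2 was 2.198 with 0 members called. No pathway gene was called in any comparison, among the genes that each alternative tested.

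The labels do not say whether the replicate numbers pair the libraries. Deviations of same-numbered libraries from their genotype means correlated at -0.0233 to 0.430. With only 2 libraries in heterozygous and in wildtype these deviations mirror each other. Knockout 1, for example, stood at 0.430 with heterozygous 1 and at -0.430 with heterozygous 2. The correlations therefore cannot decide whether the libraries are paired. With a replicate block Fgf2 was 2.01 against wildtype (limma, adjusted p = 0.0882) and 2.0 against heterozygous (limma, adjusted p = 0.128), with 0 members called in each; Fgf2os was 1.49 in both (limma, adjusted p = 0.0919 and 0.128). The whole-table count fell to 3 with the block, against 50 without it, between knockout and wildtype and to 0, against 49, between knockout and heterozygous, while against the controls it was 38, against 95. The Fgf2 to Nudt6 difference was also compared within replicate numbers without knockout 3, an alternative chosen after seeing the data. The difference was then 1.62 (two-sided exact permutation within numbers, by absolute size without doubling, p = 0.111, the smallest it allows). Its 12 alternatives gave 1.45 to 1.80 (exact permutation, p = 0.0571 to 0.2).

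Reversals were limited to differences near 0 that never passed. Nudt6 between knockout and heterozygous was -0.067 on the TPM scale, -0.091 without both lens-rich libraries, -0.0068 with the lens level as a covariate and -0.091 to 0.11 with 1 library left out. Between heterozygous and wildtype, Fgf2 was -0.056 on the TPM scale, -0.21 without both lens-rich libraries, -0.049 with the lens covariate and -0.21 to 0.25 with 1 library left out. Fgf2os there was 0.0028 with voom, 0.070 with the Y-linked covariate and -0.12 to 0.12 with 1 library left out. Fgf1 was 0.059 with the Y-linked covariate and -0.15 to 0.12 with 1 left out, and Fgf9 was -0.070 on the TPM scale, -0.0011 with the Y-linked covariate and -0.10 to 0.11 with 1 left out. The cause was not tested.

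On the TPM scale the median of all tested genes moved to -0.16 between knockout and wildtype; relative to it Fgf2 (2.06) was still higher. Over all tested genes, the calls between knockout and wildtype numbered 50, against 28 on the TPM scale, 28 with the lens and 33 with the Y-linked covariate, 77 with voom, 15 without both lens-rich libraries and 2 to 53 with 1 library left out. Between knockout and heterozygous they numbered 49, against 77 with voom, 0 without both lens-rich libraries and 14 to 40 with 1 library left out. Against the 4 controls they numbered 95, against 63 on the TPM scale, 151 with voom, 49 without both lens-rich libraries and 45 to 90 with 1 left out. Between heterozygous and wildtype they numbered 0, against 19 with no filter and 0 to 3 with 1 library left out. The fewest reads stood behind Fgfr3, with 7 to 25 in the libraries other than the lens-rich pair, and behind Nudt6, with 26 to 61.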
